A study of Caenorhabditis elegans with 16 samples.

Results

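The right arm of chromosome II of Caenorhabditis elegans was described here as the windows of 500 bp that start from 12020001 to 14608501 and held at least 20 counts in each of the 4 input columns. Of the 5178 windows in this stretch of 2.589 Mb, 4984 met that floor, out of 191140 such windows in the whole table. The other 194 windows formed 98 stretches of low input. Early embryos, from before the bean stage and from worms kept at 20 °C, were used for chromatin immunoprecipitation sequencing (ChIP-seq) of H3K9me2 and H3K9me3, the di- and trimethylated forms of lysine 9 of histone H3. The embryos were of 2 mutant strains, met-2(n4256) III and set-25(n5021) III, and whole embryos were used, so that all their cell types are mixed. The labels list 16 samples in 8 groups, with 2 biological replicates for the ChIP and the input of either mark in either strain, and no wild-type sample. The table holds 1 column of counts per group, and no source used here says whether a column is 1 of the replicates or their sum (a final 1 in the name of 1 of them, H3K9me3 ChIP in met-2, could stand for replicate 1). A column is called a library here. No difference could therefore be set against the spread between replicates, and no test was made. Intervals cover counting error only.

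MET-2 is the histone methyltransferase that makes H3K9me1 and H3K9me2 in worm embryos, and SET-25 is the one on which H3K9me3 depends. The arms of worm autosomes are rich in repeats, recombine more often than the centres and lie near the nuclear envelope, to which methylated H3K9 tethers them. H3K9me2 in a set-25 mutant is thus the methylation that does not need SET-25, and H3K9me3 in a met-2 mutant is the methylation that does not need MET-2.

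Enrichment is the log2 ratio of the column's counts scaled to a common total (CPM) of a ChIP to those of its own input, each with 0.1 CPM added. A window was taken as enriched above a log2 ratio of 1. Total counts ran from 19732750 to 114221896 per column. On the arm, the median window of the H3K9me2 ChIP held 118 counts in met-2 and 50 in set-25, and that of the H3K9me3 ChIP 220 in met-2 and 113 in the library labelled set-25. In the same order, the median windows of the inputs held 163, 221, 568.5 and 248 counts. The H3K9me3 ChIP and input labelled set-25 went in part against their label, and differed from each other, at the mutated genes on chromosome III. In the 1.5 kb that were missing from the H3K9me2 libraries of set-25, their input held 2 counts against 806.25 predicted by the flanks, as its label implies, but their ChIP held 1431 against 1029.9. In the 1 kb that was missing from the met-2 inputs, their input held 2 counts against 607.9 predicted and their ChIP 15 against 139.5. The input thus lacked both stretches and the ChIP lacked the one missing in met-2. They are therefore called the library labelled set-25 throughout, and every strain comparison of H3K9me3 rests on it.

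H3K9me2 that does not need SET-25 marked the right arm of II in many short stretches. In set-25 embryos, 683 of the 4984 windows (13.7%) were enriched, against 10.3% of all windows of the genome and 0.956% of those in the centre of II. The 4984 values had a median of -0.89, quartiles of -1.59 and 0.19 and a highest decile above 1.40, while the centre had a median of -1.74. By this mark the stretch thus stood apart from the centre, as its name as an arm implies. The left arm, taken as the 8711 kept windows from 306001 to 4879000, carried more of the mark. There 2111 windows (24.2%) were enriched and the median was -0.25, so the right arm lay lower by 0.63 on the log2 scale. Among enriched windows alone, which lie above 1 by definition, the medians were closer, 1.76 on the right arm and 1.94 on the left. Over all kept windows the highest decile began at 1.40 on the right arm and at 2.18 on the left. The share above a 4-fold enrichment was 5.28% on the right and 11.4% on the left arm. The direction of the difference between the arms was the same under each alternative run, and its size ran from -0.49 to -1.15. The shares depended on the scaling: with each library centred on its genome median, 35.0% of the windows of the right arm, 52.1% of the left arm and 23.8% of the genome were above 1, in the same order as before.

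**Figure D1:**
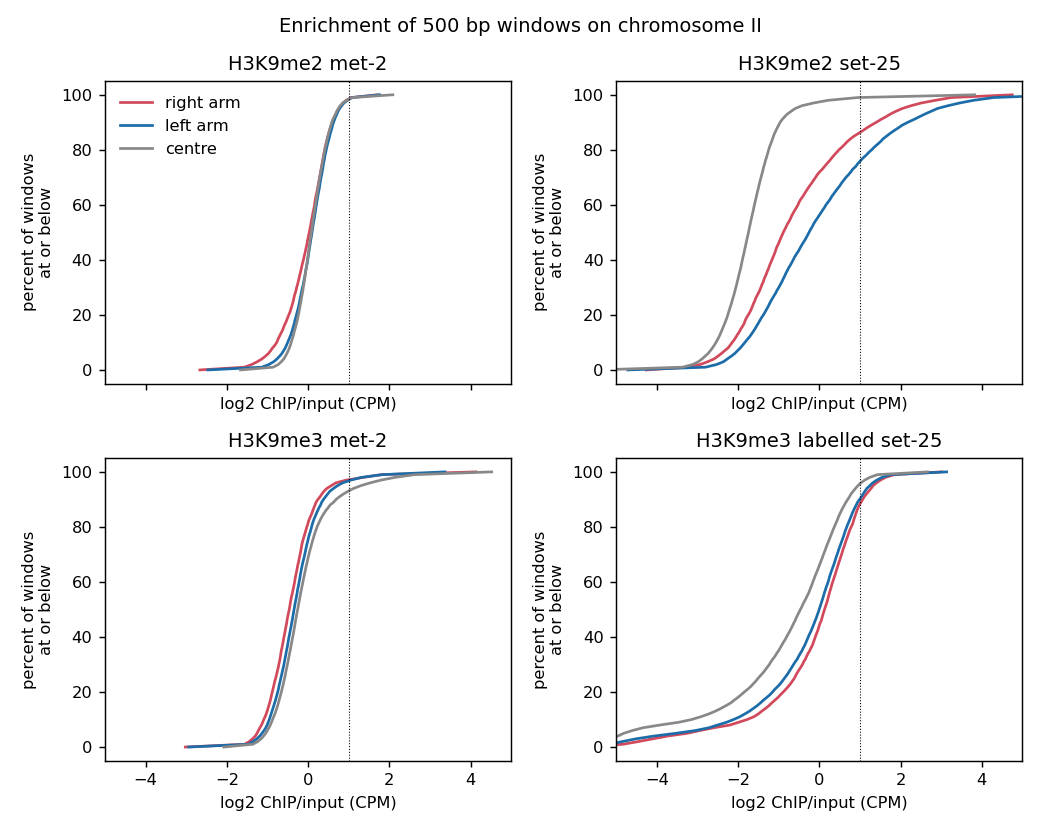
Cumulative distribution of the log2 ratio of ChIP to input (CPM, x axis) over the kept 500 bp windows of the right arm, the left arm and the centre of chromosome II, in each of the 4 libraries; the y axis is the percent of windows at or below a value and the dotted line the threshold of 1. For H3K9me2 in set-25 the right arm (median -0.89) lay between the left arm (-0.25) and the centre (-1.74), while the curves of the 2 arms lay close together in the other 3 libraries.

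Enriched windows also joined into runs differently on the right and left arms. On the right arm the 683 enriched windows formed 309 runs of 2.21 windows on average, and on the left arm the 2111 formed 602 runs of 3.51. Runs of at least 10 adjacent enriched windows, called domains, numbered 1 on the right arm and 47 on the left. This is 0.401 domains per Mb of kept windows against 10.8. Domains held 2.34% of the enriched windows of the right arm and 35.9% of those of the left arm. Of all windows of the right arm 0.321% lay in a domain, of the left arm 8.70% and of the genome 2.8%. Runs of 2 to 4 windows, 1 to 2 kb long, held 57.5% of the enriched windows on the right arm and 30.2% on the left. The longest run was 8 kb on the right and 19.5 kb on the left.

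The arms also differed in domains when equal shares of their windows were taken, a comparison added after the data were seen. When the threshold on the right arm was lowered to 0.23, so that 24.2% of its windows passed as on the left arm, 6 domains were found. When the threshold on the left arm was raised to 1.77, so that 13.7% passed, 19 domains were found there. Low-input windows were about as scarce on the right arm as on the left, with 96.3% and 95.2% of windows kept, and 10 of the 98 low-input stretches lay directly between enriched windows. Bridging any single window gave 3 domains on the right arm and 69 on the left. The number on the right arm depended on the scaling, since it was 24, against 123 on the left arm, when every library was first centred on its median. These are numbers per arm, and the left arm held 8711 kept windows against 4984 on the right.

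**Figure D2:**
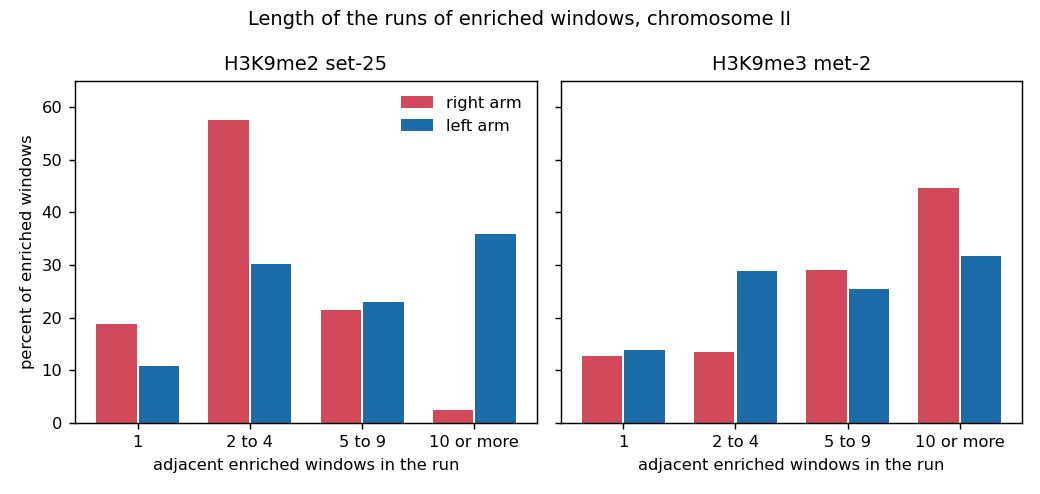
Percent of the enriched 500 bp windows (y axis) that lay in runs of 1, 2 to 4, 5 to 9 and 10 or more adjacent enriched windows (x axis), on the right and left arms, for H3K9me2 in set-25 and H3K9me3 in met-2. For H3K9me2, runs of 10 or more windows held 2.34% of the enriched windows on the right arm and 35.9% on the left, whereas for H3K9me3 they held 44.7% and 31.8%.

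Along the arm, H3K9me2 of set-25 changed between high and low stretches several times. In 13 bins of 200 kb, the last of them shorter, the share of enriched windows ran from 0.529% to 29.3%. The highest bin by summed counts lay from 13220001 to 13420000, with a log2 enrichment of 0.89 (95% interval 0.87 to 0.90) and 29.3% of windows enriched. The next were the bin from 13420001 to 13620000 (0.56, with 22.5% enriched) and the bin from 13820001 to 14020000 (0.47, with 17.6% enriched). The innermost bin, directly beside the centre, followed at 0.46 with 19.9%. At the inner boundary of the arm, 4.63% of windows were enriched in the last 500 kb of the centre and 12.8% in the first 500 kb of the arm. The profile was uneven there, since the bins of the arm from the boundary outward began with 19.9%, 9.16% and 3.83%. The outermost bin, from 14420001 to 14609000, was the lowest, at -1.21 with 0.529% of its windows enriched. It held most of the longest stretch of the arm without an enriched window, 112.5 kb from 14411001 to 14523500. The longest such stretch of the left arm was longer, 194 kb from 4685001 to 4879000. In the outermost bin of the right arm 1.59% of windows were enriched for H3K9me3 in met-2.

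**Figure D3:**
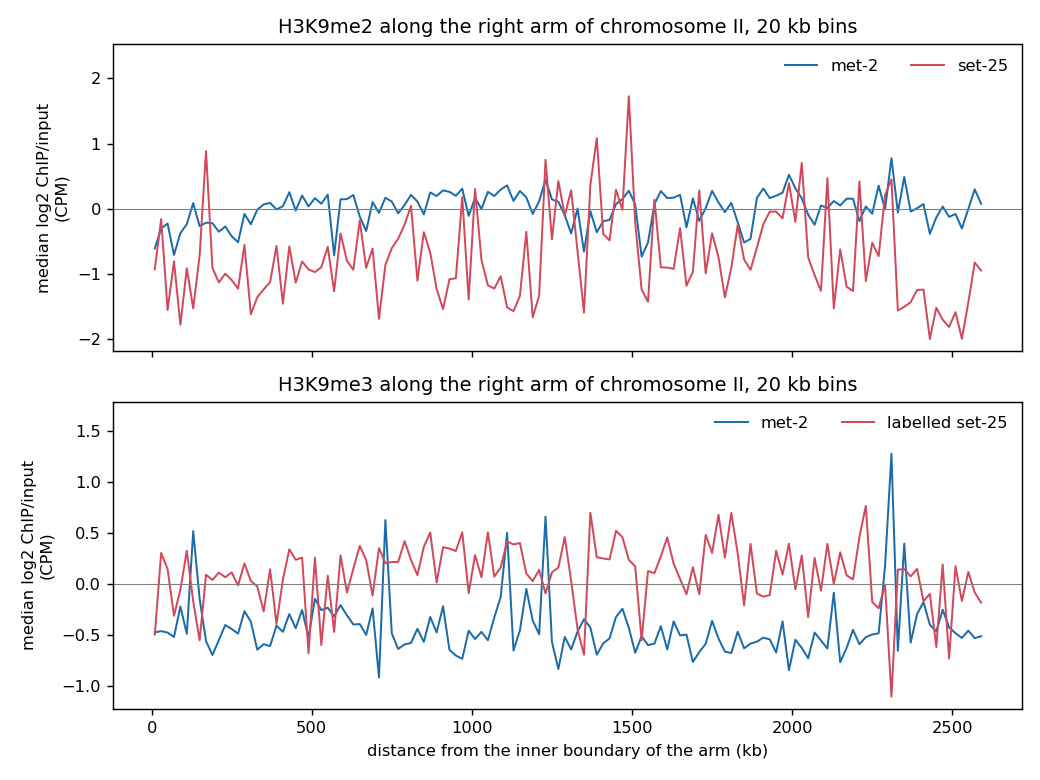
Median log2 ratio of ChIP to input (CPM, y axis) in bins of 20 kb along the right arm of chromosome II, against the distance from the inner boundary of the arm in kb; the upper panel shows H3K9me2 and the lower H3K9me3, with met-2 in blue and set-25 (for H3K9me3 the library labelled set-25) in red. H3K9me2 of set-25 alternated between peaks and troughs and was lowest in the outermost part, while H3K9me2 of met-2 ran between -0.74 and 0.78.

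The single H3K9me2 domain of the arm spanned 8 kb from 13508001 to 13516000. The H3K9me2 ChIP of set-25 held 6488 counts there and its input 3147, a log2 enrichment of 2.23 (2.17 to 2.29). In met-2 the H3K9me2 ChIP held 2013 counts and its input 1793, an enrichment of 0.52 (0.43 to 0.62), with 1 of the 16 windows above the threshold. H3K9me3 was at -0.16 in met-2 (-0.19 to -0.13) and at 0.22 in the library labelled set-25 (0.17 to 0.27), with none of the 16 windows enriched in either. By summed counts the domain was thus above the threshold for 1 mark in 1 strain. H3K9me2 of met-2 stayed below it, but above the upper quartile of the arm's windows in that library (0.34). The highest single window for H3K9me2 of set-25 lay elsewhere, from 14236001 to 14236500, with 2889 ChIP counts over 240 input counts, a log2 enrichment of 4.75. In met-2 the same window held 126 ChIP over 121 input counts, an enrichment of 0.40.

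H3K9me2 of met-2 embryos departed little from its own input on the right arm. The median was 0.03 with quartiles of -0.37 and 0.34, and 66 windows (1.32%) were enriched, a share near that of the whole genome (1.34%). The left arm had a median of 0.10 and 1.63% of windows enriched. Of the 66 windows, 46 (69.7%) stood alone, against 69.7% of the enriched windows on the left arm and 57.9% in the genome. None was above 2, and none on the left arm, against 7 of the 191140 windows of the genome. The longest run was 2 kb, against 1.5 kb on the left arm. The 66 windows had a median input of 64 counts, against 163 over the arm. Windows with an input below 50 counts made up 37.9% of the 66 and 3.59% of the arm, and with a floor of 50 counts the share fell to 0.880%. The part of low input in this enrichment was not tested. In windows of 5 kb none was enriched. The share depended on the input, since it was 6.56% with the H3K9me3 input of met-2 in place of its own.

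H3K9me3 that does not need MET-2 was found at few places on the right arm, in longer runs than H3K9me2 of set-25 there. In met-2 embryos 141 windows (2.83%) were enriched, fewer than in the genome as a whole (4.1%) and in the centre of II (6.92%), and about as many as on the left arm (3.21%). The median was -0.46, with quartiles of -0.80 and -0.13, and lay 0.12 below that of the left arm. The 141 windows formed 37 runs of 3.81 windows on average, against 3.33 on the left arm and 4.30 in the genome. Of the 37 runs 5 were domains. Domains held 44.7% of the enriched windows, against 31.8% on the left arm and 45.5% in the genome. Of the windows of the right arm 1.26% lay in a domain, of the left arm 1.02% and of the genome 1.87%. The left arm had 6 domains on its 8711 windows. With the H3K9me2 input of met-2 in place of its own, 14.5% of the windows passed the threshold, while the number of domains was again 5. By summed counts in bins of 200 kb the mark was highest from 13020001 to 13220000, at 0.29 with 7.77% of windows enriched. This bin holds the 5 kb domain described next, and its median window was at -0.35. The bins from 14220001 to 14420000 (-0.09, with 6.78% enriched) and from 12420001 to 12620000 (-0.22, with 2.30% enriched) came next.

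The domain with the highest H3K9me3 was the shortest, 5 kb from 13105501 to 13110500. The H3K9me3 ChIP of met-2 held 57456 counts and its input 12244, a log2 enrichment of 3.19 (3.16 to 3.22). The library labelled set-25 was at 0.22 (0.14 to 0.29), 7.87-fold lower. H3K9me2 of met-2 reached 0.90 here (0.80 to 1.01), with 5 of the 10 windows enriched, and H3K9me2 of set-25 was at -0.95 (-1.10 to -0.80). The longest H3K9me2 run of met-2 on the whole arm, 2 kb from 13108001 to 13110000, lay inside this domain. There met-2 stood at 1.27 for H3K9me2 (1.08 to 1.46) and at 3.37 for H3K9me3, and set-25 at -1.11 for H3K9me2.

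The longest domain, 9 kb from 13249501 to 13258500, held the most windows enriched for both kinds of methylation. H3K9me3 of met-2 was 1.47 (1.44 to 1.51) and H3K9me2 of set-25 was 0.98 (0.92 to 1.04), with all 18 windows enriched for the former and 10 for the latter. H3K9me2 of met-2 was 0.40 (0.34 to 0.47) and H3K9me3 of the library labelled set-25 was -0.44 (-0.52 to -0.36). Over the arm, 17 windows were enriched for both H3K9me2 in set-25 and H3K9me3 in met-2, of which 10 lay in this domain and 7 elsewhere. The 17 made up 2.49% of the H3K9me2 windows and 12.1% of the H3K9me3 windows, close to the 13.7% of all windows of the arm that carried H3K9me2. On the left arm the 99 shared windows made up 4.69% and 35.4%, where 24.2% of all windows carried H3K9me2.

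In the other 3 domains no window was enriched for H3K9me2 of set-25 as scaled to totals. From 12151501 to 12158000 the mark was at 1.76 (1.72 to 1.80) in met-2, while H3K9me2 of set-25 was at -1.79 (-1.95 to -1.64). From 12743001 to 12748500 it was at 2.19 (2.16 to 2.23), with H3K9me2 of set-25 at -1.01 (-1.16 to -0.87). From 14417501 to 14423000 it was at 1.68 (1.64 to 1.71), with H3K9me2 of set-25 at -0.24 (-0.34 to -0.14). This last value lay above the median of the arm (-0.89) and 1.09 above the genome median of its library, past the threshold on the centred scale. Over all 5 domains H3K9me2 of met-2 ran from 0.36 to 0.90. The windows of the arm had a median of 0.03 and an upper quartile of 0.34 for it. Over the same domains the library labelled set-25 ran from -0.44 to 0.40 for H3K9me3. The domain from 12151501 began 1 window after a 3.5 kb run of H3K9me2 in set-25 from 12147501 to 12151000, a pair noticed after the values were seen. In that run H3K9me2 of set-25 was 2.32 (2.24 to 2.41) and H3K9me3 of met-2 was -0.34 (-0.42 to -0.27).

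**Figure D4:**
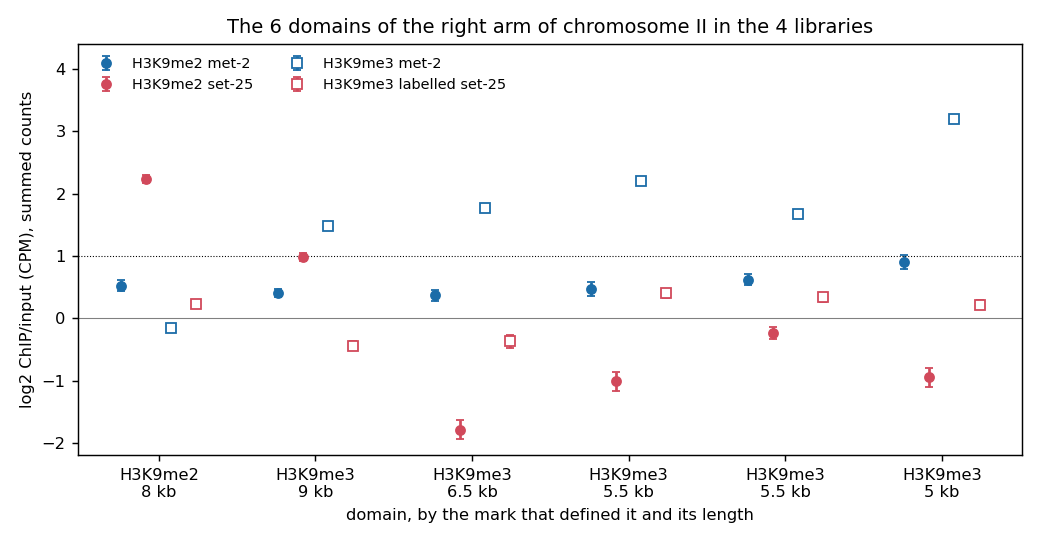
Log2 ratio of summed ChIP to summed input counts (CPM, y axis) in the 6 domains of the right arm of chromosome II, each named by the mark that defined it and its length (x axis); circles are H3K9me2, squares H3K9me3, blue met-2 and red set-25 or the library labelled set-25, and bars are exact 95% counting intervals, at some points smaller than the symbol. Each domain lies above 1 by definition in the library that defined it, as H3K9me2 of set-25 does in the H3K9me2 domain (2.23). Among the H3K9me3 domains, H3K9me2 of set-25 came close to 1 in that of 9 kb only (0.98).

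The highest H3K9me3 window of met-2 on the arm lay beside a stretch of low input, a site described after its values were seen. From 14322501 to 14323000 the ChIP held 4102 counts over 445 in the input, a log2 enrichment of 4.13. It belonged to a 3 kb run from 14321001 to 14324000 with an enrichment of 3.65 (3.59 to 3.72). This run ended where 15 adjacent windows, 7.5 kb up to 14331500, held so few input counts that they were left out. In these 7.5 kb the H3K9me3 ChIP of met-2 still held 370 counts over 16 in its input, an enrichment of 5.49 (4.77 to 6.32). The H3K9me2 ChIP of met-2 held 25 counts over 22, the H3K9me2 ChIP of set-25 0 over 22 and the H3K9me3 ChIP labelled set-25 0 over 9. Beyond the stretch H3K9me3 of met-2 was again enriched for 1 kb, at 2.72 (2.52 to 2.91). The whole site from 14321001 to 14332500 had an enrichment of 3.60 (3.54 to 3.66), above that of every domain of the arm, but was no domain. Of the 15 left-out windows 8 were above the threshold, and counting them would give no run of 10. H3K9me2 of met-2 was 0.79 there (0.66 to 0.93). Most input of the site came from its first 3 kb, and no source used here says how the authors treated reads that map to several places.

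**Figure D5:**
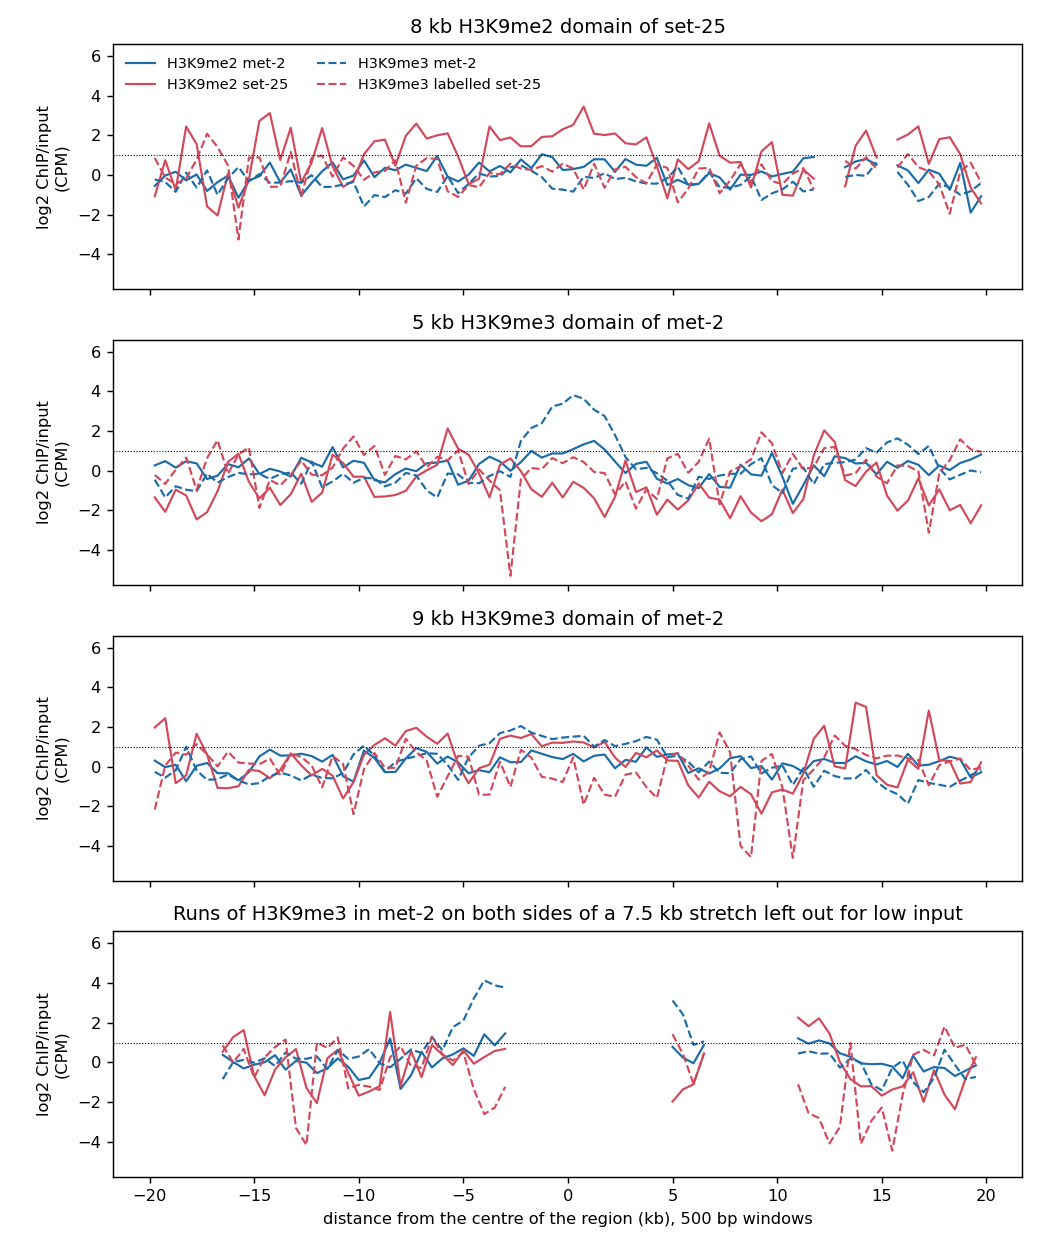
Log2 ratio of ChIP to input (CPM, y axis) in 500 bp windows within 20 kb of the centre (x axis, kb) of 4 regions of the right arm, with solid lines for H3K9me2, dashed lines for H3K9me3, blue for met-2 and red for set-25 or the library labelled set-25; gaps are windows left out for low input. H3K9me3 of met-2 formed a single rounded peak in the 5 kb domain, ran together with H3K9me2 of set-25 over part of the 9 kb domain and rose on both sides of the 7.5 kb gap.

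The library labelled set-25 showed H3K9me3 as scattered windows on the right arm, as it did in the whole genome. It had 580 enriched windows (11.6%), against 6.81% in the genome and 9.82% on the left arm. Of the 580, 354 (61.0%) stood alone, against 57.4% of the enriched windows on the left arm and 66.1% in the genome. No domain was found in this library on either arm or elsewhere in the genome. Its longest run on the right arm was 3 kb from 14249501 to 14252500, with a log2 enrichment of 1.42 (1.35 to 1.49) and met-2 at -0.84. The median of the arm was 0.13, and 254 of the 4984 windows held no ChIP count, so that their values rest on the added 0.1 CPM. In windows of 5 kb 1.76% were enriched, a lower share than for H3K9me3 of met-2 in such windows (3.14%).

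Between the strains, the direction of the difference in H3K9me2 on the right arm depended on the scaling. Neither scaling gives the absolute level of the mark, and centring makes the genome medians of the libraries equal by construction. As scaled to totals, 2171 windows (43.6%) were at least 2-fold higher in met-2, against 60.2% in the genome, and 667 (13.4%) at least 2-fold lower, against 9.81%. The median window of the genome was higher in met-2 by 1.27, however, and the split turned when every library was first centred on its median. Then 251 windows (5.04%) were at least 2-fold higher in met-2, against 10% in the genome, and 1699 (34.1%) lower, against 23.5%. On the left arm the centred shares were 2.92% and 49.6%. The right arm thus lay between the left arm and the genome in both directions.

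The longest run with lower H3K9me2 in met-2 was 4 kb, from 12300001 to 12304000. The set-25 ChIP held 4685 counts over 1458 input counts and the met-2 ChIP 670 over 1347, enrichments of 2.87 (2.78 to 2.96) and -0.65 (-0.79 to -0.52), an 11.5-fold difference. It was followed by 3.5 kb from 12197501 to 12201000, where set-25 was at 2.39 and met-2 at -0.26, a 6.27-fold difference. The third run, 3.5 kb from 13511001 to 13514500, lay in the H3K9me2 domain and differed 3.91-fold, from 2.50 to 0.53. In the other direction the longest run was the 2 kb inside the H3K9me3 domain from 13105501, 5.21-fold higher in met-2 and still higher by 1.06 on the centred log2 scale. The next, 1 kb each, lay from 12606001 to 12607000, at 1.18 in met-2 and 0.02 in set-25, and from 12733501 to 12734500, at 1.30 and -2.04. The first of these turned to -0.16 on the centred scale, and the second rests on 76 input counts in met-2.

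For H3K9me3, 824 windows of the right arm (16.5%) were at least 2-fold higher in met-2 than in the library labelled set-25, against 29.7% in the genome, and 1784 (35.8%) at least 2-fold lower, against 19.6%. After centring they were 17.2% and 33.7%, against 30.7% and 18.1% in the genome. In windows of 5 kb 2.94% were higher, while the share of lower windows was 33.7%. With 1 CPM added in place of 0.1, 10.1% of the 500 bp windows were higher and 28.7% lower. The library labelled set-25 held no ChIP count in 254 of the 4984 windows, whose part in these shares was not tested. The longest runs with higher values in met-2 were the 9 kb domain (3.76-fold), 5.5 kb of the domain from 12151501 (4.93-fold) and the 5 kb domain (7.87-fold). The longest runs with lower values in met-2 were the 3 kb from 14249501 (4.79-fold) and 2.5 kb each from 12459501 to 12462000 (3.14-fold) and from 13044501 to 13047000 (3.38-fold). In the last 2 of these H3K9me2 of set-25 was also high, at 2.42 and 1.03, with 2 of the 5 windows of each enriched.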

How the data were processed

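The authors deposited raw counts in windows of 500 bp, in 8 columns. No header states the unit. All values are whole numbers and the totals differ between columns, so they were taken as counts. Per the labels' protocols, embryos were fixed in 2% formalin and chromatin was sonicated. The alignment, counting, duplicate removal and build used by the authors are not given in the sources at hand. Positions are those of the windows, on which chromosome II ends at 15279323. The gene table at hand is of another build, so no gene and no sequence is given. The table's final line, of 198088, breaks off and was not used.

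Counts were scaled to column totals with Python 3.11.15, numpy 2.4.6, pandas 2.3.3 and scipy 1.17.1. Windows under 20 counts in any input were left out. Regions have summed counts with an exact (Clopper-Pearson) 95% interval of the ChIP share, which covers counting error only, since amplified reads are not independent molecules. Runs missing from an input were adjacent windows under 10% of that input's median and over 40% of the median in the other strain's input, with 10 windows on each side as flanks. No spread between replicates can be had from 1 column per group, so no test was run. The left arm follows the boundaries of the published recombination map, which the right arm follows too. The named regions are the 5 longest domains of H3K9me2 in set-25 and of H3K9me3 in met-2, the longest run of each other library, the 3 longest runs per mark and direction of the strain difference, and the 3 highest bins of 200 kb. Exceptions are stated. Members, thresholds and regions were chosen with earlier results of these data known. The scripts were tested on simulated data. Alternatives changed the floor, the added CPM, the input, the threshold, the scaling, the window size and the left arm.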

Additional observations from a re-analysis of the deposited data

Results flagged for a closer look

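The difference in H3K9me3 between the right and the left arm of chromosome II went opposite ways under the 2 strain labels. The median of the right arm minus that of the left was -0.12 in met-2 and 0.13 in the library labelled set-25. Both signs held under each alternative run, but each value comes from 1 ChIP column and its input, and the difference between them was not tested. The library labelled set-25 went in part against its label at the mutated genes, where its ChIP and input also differed from each other. It held no ChIP count in 254 of the 4984 windows of the right arm (5.10%) and in 416 of the 8711 of the left arm. The part of the label and of these windows in this result was not tested.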

How the results depend on the processing

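No paired analysis was possible because each group has 1 column, and which replicate or sum of replicates a column holds is not known. For the same reason no replicate could be left out. Of 96 planned recomputations 57 stayed within 1.5 times a share, or within the binomial interval of a difference of medians, and 39 moved. Of 32 added for the numbers of domains 16 moved. The binomial interval takes windows as independent, although adjacent windows resembled each other. It served only to sort the recomputations and is no measure of error. The differences between the arms kept their sign in each recomputation run. Between the strains, the median difference in H3K9me2 (met-2 minus set-25) on the right arm turned from 0.83 to -0.49 with each library centred. The causes were not tested. The values that moved follow.

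For the share of enriched windows, H3K9me2 of met-2 became 0.880% with a floor of 50 counts, 0.361% with 1 CPM added, 6.56% with the input of the other mark, 0.201% with that of the other strain, 14.5% and 0% at thresholds of 0.5 and 2, and 0% in windows of 5 kb. H3K9me2 of set-25 became 5.28% at a threshold of 2 and 35.0% with each library centred. H3K9me3 of met-2 became 5.52% and 0.742% at these thresholds, 4.25% with each library centred, and 14.5% when divided by the input of the other mark. The library labelled set-25 became 32.1% and 0.542% at these thresholds, 23.0% with each library centred, 30.2% with the input of the other mark and 1.76% in windows of 5 kb.

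For strain differences, at a threshold of 2, 10.2% of windows had higher and 5.24% lower H3K9me2 in met-2, and for H3K9me3 these were 8.75% and 4.31%. With each library centred H3K9me2 was higher in 5.04% and lower in 34.1%. H3K9me3 was higher in 10.1% with 1 CPM added and in 2.94% of windows of 5 kb.

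The right minus the left arm, for H3K9me2 of set-25, was -0.49 with 1 CPM added, -0.52 in windows of 5 kb, -0.86 against the outer 25% of the chromosome and -1.15 against a stretch of equal length and distance from the end. For H3K9me2 of met-2 it was -0.14 with the input of the other mark and -0.11 by means. For H3K9me3 of met-2 it was -0.10 with 1 CPM added, -0.023 with the input of the other mark, -0.056 with that of the other strain and -0.15 against the stretch of equal length. For the library labelled set-25 it was 0.24 with the input of the other mark, 0.071 with that of the other strain and 0.17 by means.

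The domains of H3K9me2 on the right arm, 1 as reported, numbered 3 with single windows bridged, 5 and 0 at thresholds of 0.5 and 2, 24 with each library centred, 0 with the other mark's input, 2 with that of the other strain and 6 at the share of the left arm. Those of the left arm, 47 as reported, numbered 73 and 13 at the thresholds, 123 centred, 30 with the input of the other mark and 19 at the share of the right arm. The left arm had more of them in each case, on 8711 kept windows against 4984 on the right arm. H3K9me3 domains of the right arm numbered 9 and 0 at the thresholds and 3 with 1 CPM added, and those of the left arm 0 at a threshold of 2. Single windows of the H3K9me2 ChIP of set-25, with a median of 50 counts on the arm, are less certain than regions.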

Other observations

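Neighbouring windows of the right arm resembled each other most for H3K9me2 of set-25. Across 4885 pairs of adjacent windows, Spearman's rho was 0.67 for this library, 0.49 for H3K9me2 of met-2, 0.37 for H3K9me3 of met-2 and 0.31 for the library labelled set-25. On the left arm, across 8572 pairs, the values were 0.81, 0.44, 0.45 and 0.37. These are descriptions across windows of 1 library each, which share their input and depth.

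The inputs of the right arm differed by mark. Across the 4984 windows the input counts of the 2 marks had a rho of -0.42 in met-2 and of -0.05 in the libraries labelled set-25, while the inputs of the 2 strains had one of 0.76 for H3K9me2 and 0.97 for H3K9me3. On the left arm the values between marks were -0.32 and 0.05. Where the marks are set side by side, they and their inputs cannot be told apart.

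The next 500 kb beyond the right arm, toward the end of the chromosome, had 6.26% of windows enriched for H3K9me2 in set-25 and 5.18% for H3K9me3 in met-2, against 9.50% and 4.54% in the last 500 kb of the arm. No run on chromosome II was missing from the input of 1 strain and present in that of the other by the rule that found the runs at the mutated genes. The 194 windows left out of the right arm held 17682 counts in the H3K9me3 ChIP of met-2 and 50738 in its input.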
